A study of Mus musculus with 1012 samples.

Results

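The 9 genes described here, of 30452 in the table, encode the Fc receptors, adaptors, kinase and inhibitory receptors through which macrophages signal from immunoreceptor tyrosine-based activation motifs (ITAMs). They were chosen by name: the ITAM adaptors Tyrobp (DAP12) and Fcer1g (the Fc receptor gamma chain), the receptors Trem2, Fcgr1, Fcgr3 and Fcgr4, which signal through these adaptors, the inhibitory receptors Fcgr2b and Sirpa, and the kinase Syk. They were followed in 1012 mouse single-cell libraries made by Live-seq, which sequences a cytoplasmic biopsy drawn from a living cell with a hollow cantilever, or by scRNA-seq of whole lysed cells (Smart-seq2), and in IBA cells sequenced whole to follow the effect of a biopsy (post-Live-seq).

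RAW-G9 is a single clone of the RAW264.7 macrophage-like line engineered with mCherry under the control of the Tnf promoter and with relA fused to GFP. RAW_Mock cells are labelled not treated, and the paper states that PBS was used for them. RAW_LPS cells were given lipopolysaccharide, a bacterial cell wall component. Their biopsies were taken 4 to 5 h later, and the paper's methods state no time for the whole cells. Some RAW_Mock biopsies came from cells that were given LPS afterwards, and some RAW_LPS biopsies from cells already biopsied before LPS. The sources used here differ on the LPS dose, so none is given. In scRNA-seq the RAW_Mock cells of RAW-G9 numbered 16, 46 and 95 in the batches 8_8, 9_1 and scRNA and the RAW_LPS cells 15, 46 and 88. In Live-seq they numbered 8, 20, 63 and 12 in the batches 6, 7, 8_8 and 9_4, and 4, 16, 9 and 10 after LPS. In Live-seq, 11 RAW_LPS cells and 1 RAW_Mock cell came from wild-type RAW264.7, all in 1 batch of their own. The cells without a macrophage origin were IBA, an immortalised brown preadipocyte line from the interscapular fat of young male C57BL6/J mice (15, 45 and 93 cells in the scRNA-seq batches 8_8, 9_1 and scRNA, and 44 in Live-seq), and ASPCs, primary adipose stem and progenitor cells from the subcutaneous fat of female C57BL/6J mice aged 7 to 10 weeks. ASPCs were taken before (ASPC_Pre, 60 and 61 cells) or after 2 days (ASPC_Post, 35 and 37 cells) of dexamethasone, IBMX, insulin and rosiglitazone, and some carried a lentiviral barcode. The post-Live-seq cells were IBA cells lysed 1 h or 4 h after a biopsy (49 and 43 cells), with 70 cells labelled 0 h that served as controls and had no biopsy.

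Each library is 1 cell, so counts were summed over the cells of 1 state, line and batch, and the batch named in the labels was the replicate: 3 batches of RAW-G9 in scRNA-seq (8_8, 9_1 and the batch named scRNA) and 4 in Live-seq (6, 7, 8_8 and 9_4). Nothing in the labels says that batches are separate cultures, so p-values measure the spread between batches, which may be technical. Levels are CPM, the counts of a gene scaled by the total count of its sum. The median total count per cell was 506778.5 in Live-seq (64547 to 1603790) and 467677 in scRNA-seq (41030 to 2671609), but the median number of genes with a count was 3941 against 8433.5. A Live-seq sum held 4 to 63 RAW-G9 cells, and a low gene could rest on 1 of them.

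The macrophage label of the RAW sums was borne out. In the RAW-G9 sums all 8 listed markers (Cd68, Lyz2, Ptprc, Csf1r, Itgam, Cd14, Laptm5 and Ctss) had counts, at a summed 6884 to 9162 CPM in scRNA-seq and 2480 to 15188 CPM in Live-seq, while 10 mesenchymal markers summed to at most 5.63 CPM. The 6 measured genes of a list of other leukocytes that use ITAM receptors (Cd3e, Cd3g, Cd79a, Cd79b, Kit and S100a8, of 10 listed) summed to at most 1.17 CPM in any RAW sum. Tnf, an LPS target, was higher in RAW_LPS in all 7 batches, by 2.41 to 4.202 on the log2 scale. RAW cells were not checked singly. Among the other libraries, 1 had macrophage markers at or above those of the lowest scRNA-seq RAW cell and no mesenchymal ones. This scRNA-seq cell, labelled IBA (batch 9_1), had 30511 CPM of macrophage markers. It held 244 of the 246 Tyrobp counts over all scRNA-seq IBA cells, 360 of 365 Trem2 counts and 56 of 57 Fcgr1 counts. It was kept as labelled, and results that rest on it are given with and without it.

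An ITAM is a pair of tyrosines in the cytoplasmic tail of an adaptor. When antibody or another ligand clusters the receptors above it, Src family kinases phosphorylate the tyrosines, Syk docks on them, and calcium, actin and NF-kappa B pathways follow, as in phagocytosis of antibody-coated particles. Fcgr2b and Sirpa carry inhibitory motifs (ITIMs) that recruit phosphatases instead; Fcgr2b does so when it is clustered by antibody and Sirpa when it meets Cd47 on another cell.

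The members lie on 6 chromosomes (GRCm38, GENCODE vM21). Fcer1g (chr1:171229572-171234365), Fcgr4 (chr1:171018920-171029761), Fcgr3 (chr1:171051174-171064935) and Fcgr2b (chr1:170958617-170976547) neighbour each other on chromosome 1. Tyrobp is at chr7:30413760-30417585, Trem2 at chr17:48346401-48354147, Fcgr1 at chr3:96282909-96293969, Sirpa at chr2:129592835-129632228 and Syk at chr13:52583173-52648792. Counts cover all exons of a gene. Fcgr3 and Fcgr2b share sequence: 94 of 1273 windows of 75 bases in the longest Fcgr3 transcript (7.38%) also occur in Fcgr2b. Of the longest Fcgr2b transcript, 321 of 3470 such windows (9.25%) also occur in transcripts of other genes, 69 in all. Only reads with a unique alignment were counted. The promoters of 3 members are shown because their levels were all higher or all lower after LPS in the 3 scRNA-seq batches and because nearly all of the window lies outside annotated exons. The Trem2 and Fcgr1 runs end at the base before the start of the transcript (RefSeq, GRCm38.p6, strand of the gene). The Fcer1g run stops 16 bases short of that base, because those bases lie in an annotated exon and are not printed. Capitals mark a match to GAGGAA, the core of the site of the myeloid factor PU.1, here on the other strand.
Fcer1g: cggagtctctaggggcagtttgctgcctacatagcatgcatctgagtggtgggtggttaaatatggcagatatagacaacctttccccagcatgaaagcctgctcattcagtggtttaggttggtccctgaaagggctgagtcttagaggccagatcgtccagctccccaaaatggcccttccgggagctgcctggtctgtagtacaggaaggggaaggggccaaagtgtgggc
Trem2: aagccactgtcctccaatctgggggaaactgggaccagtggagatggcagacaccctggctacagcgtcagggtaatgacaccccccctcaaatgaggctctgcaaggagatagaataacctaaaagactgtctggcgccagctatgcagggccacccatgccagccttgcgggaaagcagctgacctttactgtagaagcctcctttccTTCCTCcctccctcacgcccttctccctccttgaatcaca
Fcgr1: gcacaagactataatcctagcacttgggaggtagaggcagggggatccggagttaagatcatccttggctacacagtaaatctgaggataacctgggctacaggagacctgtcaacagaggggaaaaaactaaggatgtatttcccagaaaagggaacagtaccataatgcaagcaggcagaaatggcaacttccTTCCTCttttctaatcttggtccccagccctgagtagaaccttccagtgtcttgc
They lie at chr1:171234366-171234599, chr17:48346151-48346400 and chr3:96293970-96294219. The match began 40 bases before the Trem2 start and 55 bases before that of Fcgr1, and it was not among the letters of the Fcer1g window. On either strand, GAGGAA was in 6 of the 9 windows for 7 members, 2 of which overlap (both of Fcgr3), and in 23.3% of 32817 promoter windows of 250 bases. The kappa B letters, GGG and TTCC with 3 bases of any kind between them, were in the same 2 overlapping Fcgr3 windows and 4.65% of all windows, and the AP-1 letters TGANTCA in 1 (Trem2, 9 bases before the start) and 6.75%. Tyrobp and Sirpa had no window. Such matches are letters and not sites of binding.

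Between genes, levels were compared per length, as CPM per kilobase of exons (RPKM). In scRNA-seq RAW_Mock cells the adaptors led, with Fcer1g at 928 ± 461 RPKM (SD, n = 3 batches) and Tyrobp at 682 ± 287, followed by Trem2 at 95.9 ± 25.7 and Sirpa at 45.0 ± 7.7. Fcgr1 at 6.37 ± 1.37, Fcgr2b at 4.27 ± 1.84 and Syk at 3.60 ± 0.82 RPKM came next. By the length of all exons, Fcgr1 lay above Syk in each batch without overlap, and Fcgr2b overlapped both. By the longest coding transcript, Fcgr1 (7.94, 5.68 and 5.48 RPKM in batches 8_8, 9_1 and scRNA) overlapped Syk (7.45, 4.69 and 6.73). Syk was then above Fcgr1 in batch scRNA, and Fcgr2b (4.04, 10.0 and 6.83) again overlapped both. The order of these genes therefore depended on the length used. Fcer1g lay above Tyrobp in each of the 3 batches (859 against 687, 1419 against 966 and 505 against 392 RPKM), although their ranges over batches overlap. Fcgr3 (0.458 ± 0.627) and Fcgr4 (0.222 ± 0.210) were at the floor. Trem2 stood at 436 RPKM when the length of its longest coding transcript was used, because its exons include a long noncoding transcript. In RAW_LPS cells Fcgr2b stood at 18.7 ± 1.6 and Fcgr1 at 1.84 ± 1.58 RPKM, so that the inhibitory Fc receptor lay above the activating one beyond the spread.

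**Figure D1:**
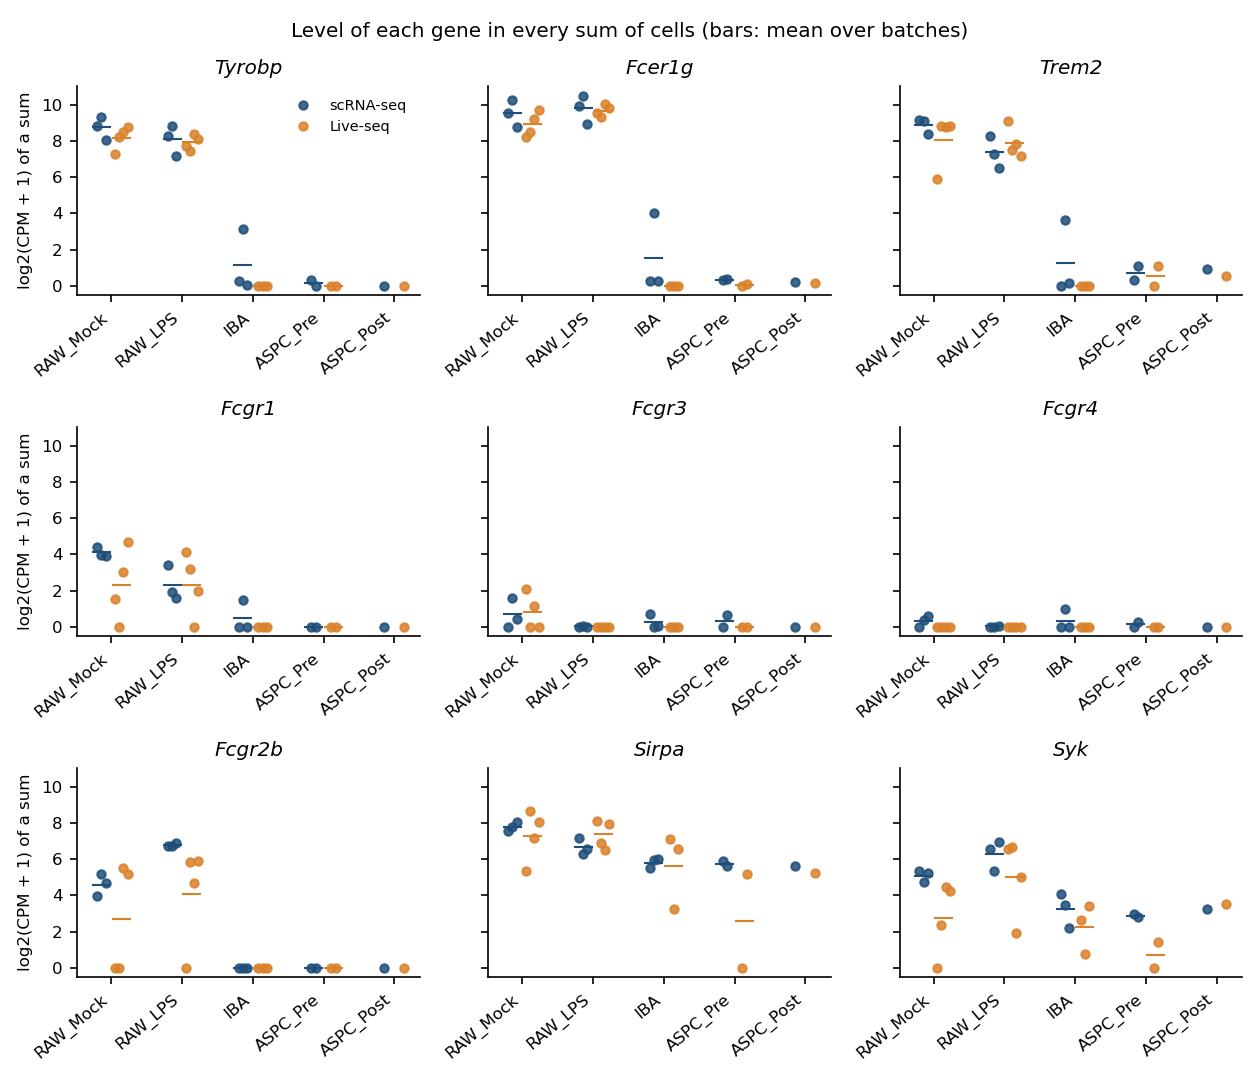
Level of each of the 9 genes, as log2(CPM + 1), in every sum of RAW-G9, IBA and ASPC cells, for scRNA-seq (blue) and Live-seq (orange); points are batches and bars are means over batches. The adaptors and Trem2 were high only in the RAW columns apart from the IBA sum of scRNA-seq batch 9_1, which holds the 1 cell with macrophage genes, whereas Sirpa and Syk also had counts in IBA cells and ASPCs.

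The first question was which members mark the macrophage line. Tyrobp was at 458, 644 and 262 CPM in the scRNA-seq RAW_Mock sums of batches 8_8, 9_1 and scRNA, against 0.208, 7.75 and 0.0310 CPM in IBA. Fcer1g was at 751, 1240 and 442 CPM against 0.208, 15.4 and 0.217, and Trem2 at 558, 537 and 328 against 0, 11.5 and 0.124. Each RAW_Mock sum was above each IBA sum for these genes, and the middle IBA value is the sum with the odd cell. Without that cell its batch held 0 counts of Tyrobp, 3 of Fcer1g and 1 of Trem2. All 7 members tested in scRNA-seq were higher in RAW_Mock than in IBA, where 12.9% of all 12303 genes were called higher. All 7 were also higher than in ASPC_Pre, where 13.8% of genes were. Tyrobp, Fcer1g, Trem2, Fcgr1 and Fcgr2b passed the filter on low counts only through the RAW cells, so these calls are no independent support. Fcgr3 and Fcgr4 did not pass it. Without a filter, 7 of 9 members were called higher than in IBA (1627 of 28253 genes were) and than in ASPC_Pre (1558 were). A gene was called at an adjusted p under 0.05 with a log2 fold change beyond 1, by edgeR's quasi-likelihood test on the sums with batch as a term.

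The adaptors and Trem2 were nearly absent outside the macrophage line. Pooled over batches, Tyrobp had 1 count in ASPC_Pre, and RAW_Mock was 4049-fold higher with 3 counts put in its place. The counting interval for 1 count was 2180 to 479792. Fcer1g was 2774-fold higher (1408 to 6425) and Trem2 419-fold (291 to 625). The edgeR adjusted p was 0.00057 for Tyrobp, 0.00044 for Fcer1g and 0.0021 for Trem2. The IBA ratios of these 3 genes used the counts as seen. Against IBA, with the odd cell in, the ratios were 119, 108.2 and 80.1 (edgeR adjusted p = 0.00051, 0.00040 and 0.0015), and the calls held without it. Without the odd cell the remaining IBA cells held 2, 11 and 5 counts, and the ratios were 14506 (counting interval 4016 to 119784), 4818 (2693 to 9651) and 5798 (2485 to 17858). Fcgr2b had 0 counts in the IBA cells and in the 60 ASPC_Pre cells of scRNA-seq, so that RAW_Mock was at least 641-fold and 266-fold higher (against 3 counts over the state). Such intervals and floors cover counting error only.

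Sirpa and Syk set themselves apart from the adaptors, Trem2, Fcgr1 and Fcgr2b by the smaller size of the difference. Fcgr3 and Fcgr4, with few counts, had pooled ratios of 17.1 and 0.92 against IBA and 2.02 and 2.30 against ASPC_Pre. Without the odd cell the Fcgr4 ratio against IBA was 4.58. Sirpa was at 187, 215 and 262 CPM in RAW_Mock against 43.8, 60.6 and 63.0 in IBA, a pooled ratio of 3.93, and at 57.4 and 48.8 CPM in the 2 ASPC_Pre sums, a ratio of 4.75. Syk was at 40.0, 25.2 and 36.1 CPM against 16.05, 9.95 and 3.66 in IBA, a ratio of 4.32, and 6.81 and 5.88 in ASPC_Pre, a ratio of 5.32. No IBA or ASPC_Pre sum reached a RAW_Mock sum for either gene. The edgeR adjusted p against IBA was 0.00097 for Sirpa and 0.032 for Syk. The Syk call was lost without batch 8_8 or without batch scRNA, as was that of Fcgr1 (adjusted p = 0.031 with all batches). The odd cell held 56 of the 57 Fcgr1 counts in IBA. The pooled Fcgr1 ratio was 17.8 with that cell and 1007 without it (counting interval 181 to 39779), and the call held without it. The Syk call against ASPC_Pre was lost without batch 9_1 or 8_8. The difference in size between Sirpa or Syk and the adaptors was not tested.

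Live-seq gave fewer calls. There too, Tyrobp, Fcer1g, Trem2 and Fcgr2b passed the filter only through RAW cells. No Tyrobp, Fcer1g or Trem2 count was seen in 44 IBA biopsies, so that RAW_Mock was at least 2483-fold, 4026-fold and 3085-fold higher. Of the 6 members tested, these 3 were called higher than in IBA (1.18% of 10104 genes were), and Tyrobp and Fcer1g were called higher than in ASPC_Pre (0.762% were; Trem2 adjusted p = 0.0503). Against IBA only Fcer1g was still called without batch 9_4 or without batch 8_8, and against ASPC_Pre none was. Sirpa was at 134, 8.33 and 93.5 CPM in the Live-seq IBA sums and at 39.0 to 407 CPM in RAW_Mock, which overlap, and it was not called (edgeR adjusted p = 0.64).

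Shares of cells with a read followed the levels. In scRNA-seq every RAW-G9 cell had both Tyrobp and Fcer1g, and Trem2 was found in 98.1% of RAW_Mock cells (exact binomial 95% interval 94.5 to 99.6). In IBA, which should lack them, Tyrobp was found in 1.96% of scRNA-seq cells, Fcer1g in 7.19% and Trem2 in 3.92%. Without the odd cell these shares were 1.32%, 6.58% and 3.29%. In scRNA-seq ASPC_Pre cells they were 1.67%, 5.0% and 13.3%, so that a few reads of Trem2 were not rare there. In Live-seq, 79 RAW_Mock biopsies had both adaptors (76.7%, 67.3 to 84.5), 11 had Tyrobp alone, 6 had Fcer1g alone and 7 had neither. A RAW_Mock cell had a read of 6 members at the median in scRNA-seq (3 to 8) and of 4 in Live-seq (0 to 7).

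**Figure D2:**
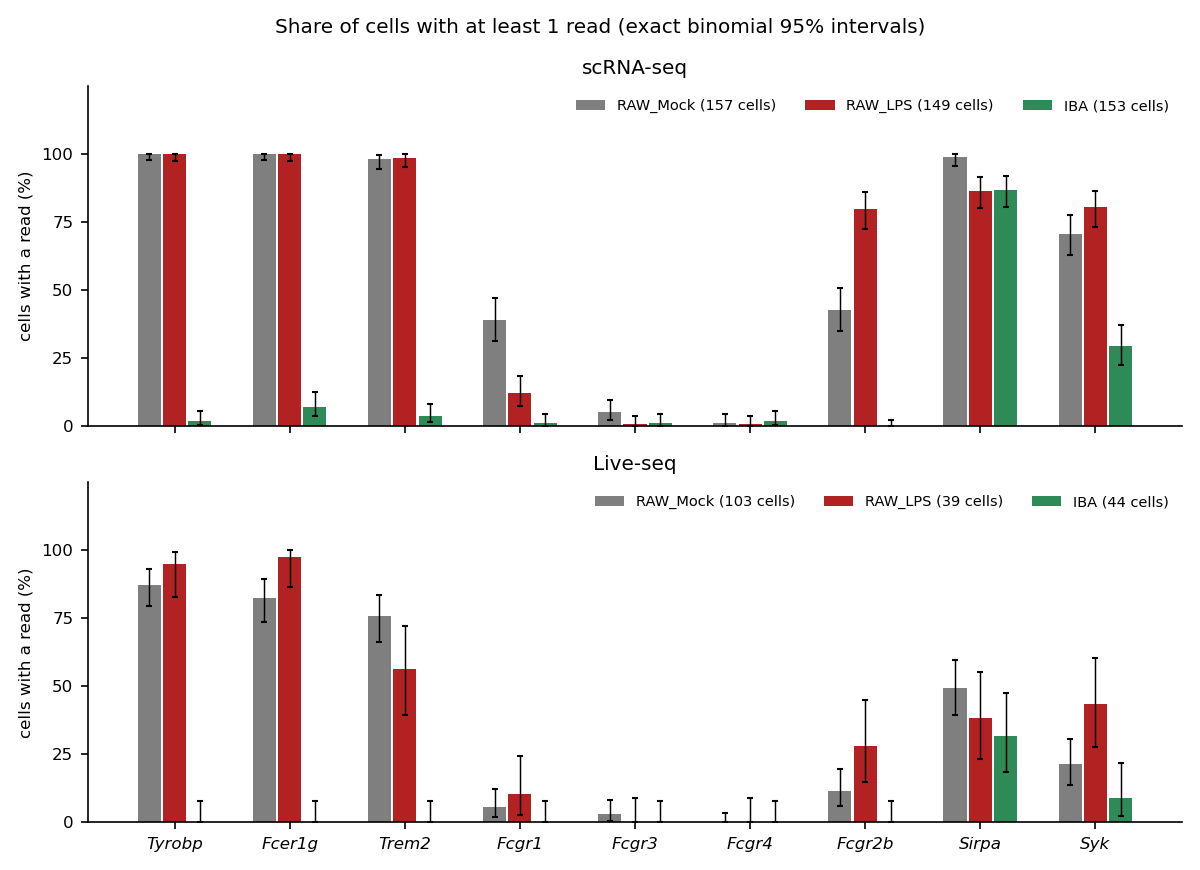
Percent of cells with at least 1 read of each gene in RAW_Mock (grey), RAW_LPS (red) and IBA (green) cells of RAW-G9 and IBA, above for scRNA-seq and below for Live-seq; error bars are exact binomial 95% intervals over cells. In scRNA-seq the share with Fcgr2b was 42.7% in RAW_Mock and 79.9% in RAW_LPS and that with Fcgr1 38.9% and 12.1%, while Fcgr3 and Fcgr4 stayed at or below 5.1% in every group shown.

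The second question was what LPS did to these genes within RAW-G9 cells. No member was called in scRNA-seq, where 1.38% of the 12303 genes were, yet all 7 tested members moved the same way in all 3 batches (45.3% of all genes did), and for Trem2, Fcgr1, Fcgr2b and Sirpa the RAW_Mock and RAW_LPS sums did not overlap (18.9% of all genes). Fcgr2b, Syk and Fcer1g had the higher values in RAW_LPS and Trem2, Fcgr1, Sirpa and Tyrobp the lower ones. Tnf was not called either in the fit over all scRNA-seq sums (log2 fold change 3.39 ± 0.88, edgeR adjusted p = 0.11). A missing call in this fit therefore does not show an unchanged level. In the fit that used only the 6 RAW sums, added after the data were seen, Fcgr2b and Syk were called higher and Trem2 lower, 3 of 7 members, where 4.74% of all genes were called. The values given first for each gene are from the fit over all scRNA-seq sums, which takes its estimate of the spread from the IBA and ASPC sums as well, the sum with the odd cell included.

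Of the adaptors, Tyrobp (a partner of Trem2) was at 458, 644 and 262 CPM in RAW_Mock and 307, 453 and 144.2 CPM in RAW_LPS. The value after LPS was lower in each batch, but the batches differed more than the states, and the groups overlapped. Its log2 fold change was -0.54 ± 0.76 (SE; edgeR adjusted p = 0.81, and 0.077 to 1.0 over the alternatives). Fcer1g, the adaptor of the activating Fc receptors, was at 751, 1240 and 442 CPM and then at 974, 1449.5 and 493 CPM, again overlapping. Its log2 fold change was 0.40 ± 0.73 (edgeR adjusted p = 0.88, and 0.10 to 1.0 over the alternatives). Without the odd cell the standard errors were 0.35 for Tyrobp and 0.28 for Fcer1g, and neither was called.

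In Live-seq, Tyrobp was at 155.4, 291, 354 and 442 CPM in RAW_Mock (batches 6, 7, 8_8 and 9_4) and at 210, 173, 338 and 272 CPM in RAW_LPS. It was lower after LPS in 3 of the 4 batches, with overlap. Fcer1g was at 299, 352, 590 and 846 CPM and then at 728, 634, 1037 and 910 CPM, higher in each batch, also with overlap. It was the only member of 6 with 1 direction in all 4 Live-seq batches (12.8% of 10104 genes) and in all 7 batches of both techniques (7.45% of 10074 genes). The Live-seq log2 fold changes were -0.23 ± 0.58 for Tyrobp and 0.81 ± 0.45 for Fcer1g (edgeR adjusted p = 1.0 for both), and the groups overlapped for all 6 members (they did not for 3.7% of genes), and no gene at all was called (0% of 10104; 463 at an unadjusted p under 0.05; DESeq2 called 94 higher and 255 lower, none a member).

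The adaptors kept a narrow ratio to each other within a state. This was chosen after its values were seen, so it is given with no test. Fcer1g counts over Tyrobp counts were 1.64, 1.92 and 1.69 in the scRNA-seq RAW_Mock sums and 3.17, 3.20 and 3.42 in the RAW_LPS sums. In Live-seq they were 1.92, 1.21, 1.67 and 1.92 in RAW_Mock and 3.47, 3.67, 3.07 and 3.34 in RAW_LPS. All 7 RAW_LPS sums lay above all 7 RAW_Mock sums, although neither gene alone separated the states. How many other gene pairs separate in this way was not counted. Trem2 counts over Tyrobp counts, also formed, overlapped between the states. They were 0.834 to 1.25 in RAW_Mock and 0.342 to 1.01 in RAW_LPS in scRNA-seq, and 0.370 to 1.56 and 0.530 to 2.58 in Live-seq. In single cells with both genes the median ratio was 1.71 in scRNA-seq RAW_Mock cells and 3.47 in RAW_LPS cells, where Fcer1g exceeded Tyrobp in all 149. In biopsies with both genes it was 1.69 in 79 RAW_Mock and 3.93 in 37 RAW_LPS cells. The 11 wild-type RAW_LPS cells had a ratio of 2.14 as a sum and a median of 2.83, between the states of the clone.

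**Figure D3:**
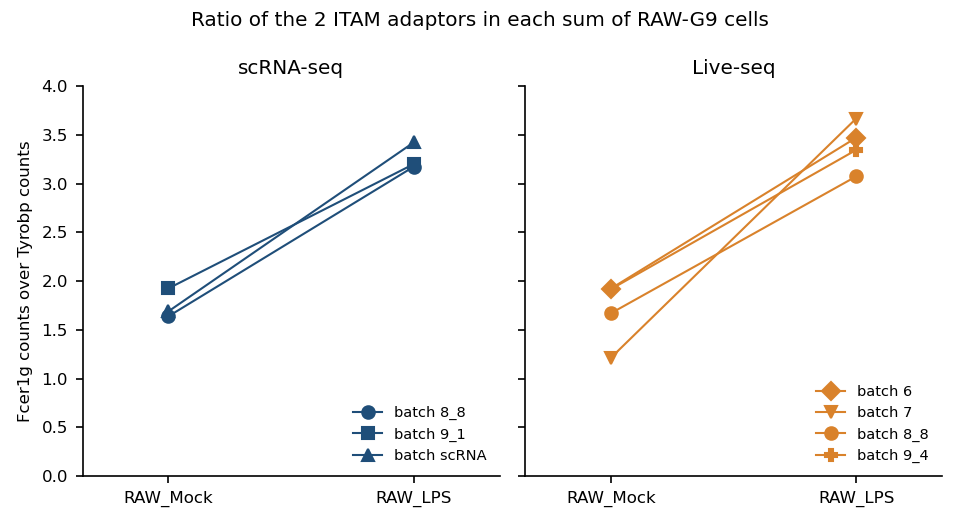
Fcer1g counts divided by Tyrobp counts in each sum of RAW-G9 cells, for scRNA-seq (left) and Live-seq (right); lines join RAW_Mock and RAW_LPS of 1 batch. The ratio was 1.21 to 1.92 in the RAW_Mock sums and 3.07 to 3.67 in the RAW_LPS sums.

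Trem2, a receptor for lipids and lipoproteins such as apolipoprotein E, was at 558, 537 and 328 CPM in the scRNA-seq RAW_Mock sums and at 309, 154.9 and 90.7 CPM in the RAW_LPS sums. It was lower in each batch, and the groups did not overlap. The log2 fold change was -1.28 ± 0.93 (edgeR adjusted p = 0.58), -1.32 ± 0.40 without the odd cell (adjusted p = 0.14), and -1.37 ± 0.22 with the RAW sums alone (adjusted p = 0.018, a call; 0.018 to 0.90 over the alternatives). The share of cells with a Trem2 read was 98.1% in RAW_Mock and 98.7% in RAW_LPS, and 97.4% and 90.6% with each cell thinned to 50000 counts, while the median CPM of the cells with a read was 600.1, 513 and 327 in RAW_Mock and 346, 133 and 84.6 in RAW_LPS.

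In Live-seq, Trem2 was at 57.5, 453, 434 and 454 CPM in RAW_Mock and at 542, 182, 226 and 144.1 CPM in RAW_LPS. In batches 7, 8_8 and 9_4 it was lower after LPS, and in batch 6 it was higher. The RAW_Mock sum of batch 6 held 90 Trem2 counts in 8 cells, 69 of them in 1 cell, and the RAW_LPS sum of that batch held 4 cells, 1 of which gave 435 of its 765 counts. A Trem2 read was found in 75.7% of RAW_Mock and 56.4% of RAW_LPS biopsies. The log2 fold change was -0.27 ± 1.08 over the 4 batches and -1.05 without batch 6 (edgeR adjusted p = 1.0 with all batches). RAW-G9 cells biopsied both before and after LPS numbered 4, and their Trem2 level went from 506 to 83.5, 799 to 2.83, 395 to 0 and 0 to 28.8 CPM. Tnf rose in count in all 4 (0 to 20 before and 490 to 1538 after). No test was run on these pairs, and the labels of 1 pair do not give the order of its biopsies, which was taken from the treatment.

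Fcgr1, the high-affinity receptor for IgG, was low. It was at 20.6, 14.7 and 14.2 CPM in the scRNA-seq RAW_Mock sums and at 9.44, 2.82 and 2.00 CPM in the RAW_LPS sums, lower in each batch and with no overlap. Its fitted log2 fold change was -1.93 ± 1.31 (edgeR adjusted p = 0.55, and 0.071 to 0.89 over the alternatives, none a call). The share of cells with a read was 31.3%, 39.1% and 40.0% in RAW_Mock and 13.3%, 15.2% and 10.2% in RAW_LPS. In Live-seq only 6 RAW_Mock biopsies (5.83%) and 4 RAW_LPS biopsies (10.3%) had a read, and Fcgr1 did not pass the filter there.

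The low-affinity activating receptors Fcgr3 and Fcgr4 were hardly seen in this line. Fcgr3 had 64 counts in 8 scRNA-seq RAW_Mock cells (5.10%, 2.23 to 9.79) and 1 count in 149 RAW_LPS cells. In Live-seq it had 27 counts in 3 RAW_Mock biopsies and 0 in 39 RAW_LPS biopsies. That 0 allows a share of up to about 7.69% (3 cells of the 39), or 9.03% by the exact interval. Fcgr4 had 26 counts in 2 RAW_Mock cells, 1 count in RAW_LPS and 0 in the RAW-G9 biopsies, which allows a share of up to 2.91% in RAW_Mock. Neither gene passed the filter, and without a filter neither was called after LPS (Fcgr3 log2 fold change -5.11 ± 2.18, edgeR adjusted p = 0.52). Reads from the sequence that Fcgr3 shares with Fcgr2b (94 of 1273 windows, 7.38%) have no unique place, so the Fcgr3 level may be somewhat too low. Counts of Fcgr2b miss such reads as well. The odd IBA cell held 24 of the 30 Fcgr4 counts among IBA cells and 56 counts of Fcgr1, but none of Fcgr2b or Fcgr3.

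Fcgr2b, the inhibitory Fc receptor, had the largest fitted rise among the members. It was at 14.3, 35.6 and 24.2 CPM in the scRNA-seq RAW_Mock sums and at 102.9, 103.03 and 119 CPM in the RAW_LPS sums. It was higher in each batch with no overlap. The log2 fold change was 2.35 ± 0.40 (edgeR adjusted p = 0.061, not a call). It was called with DESeq2 (adjusted p = 0.00067), the edgeR 4 fit (0.019), no filter on low counts and the RAW sums alone (2.34 ± 0.29, 0.0084), 4 of 12 alternatives, with adjusted p from 0.00067 to 0.33, and it was not called when any batch was left out. Both the share of cells with a read and the level in those cells were higher after LPS: 31.3%, 54.4% and 39.0% of RAW_Mock cells against 66.7%, 89.1% and 77.3%, and a median of 32.8, 36.7 and 36.4 CPM in RAW_Mock cells with a read against 177, 80.7 and 125.

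The counts of Fcgr2b over those of Fcgr1, the inhibitory over the high-affinity activating receptor, were 0.697, 2.42 and 1.71 in the RAW_Mock sums and 10.9, 36.6 and 59.5 in the RAW_LPS sums of scRNA-seq, also chosen after values were seen and given with no test. In Live-seq, Fcgr2b was at 0, 0, 44.8 and 35.4 CPM in RAW_Mock and at 0, 55.9, 24.5 and 57.6 CPM in RAW_LPS. The groups overlapped, 2 batches were higher after LPS, 1 was lower and 1 had no count in either state. The fit gave a log2 fold change of 1.57 ± 2.70 (edgeR adjusted p = 1.0). A read was found in 12 RAW_Mock biopsies (11.7%) and 11 RAW_LPS biopsies (28.2%), so that a change of the size seen in scRNA-seq could not be resolved with these biopsies. A gene on the other strand, Gm38204, overlaps Fcgr2b and had 10 counts in the whole table; strand was not used in the counting.

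Sirpa, the receptor for Cd47, was at 187, 215 and 262 CPM in the scRNA-seq RAW_Mock sums and at 140, 77.5 and 94.9 CPM in the RAW_LPS sums, lower in each batch and with no overlap. The log2 fold change was -0.94 ± 0.28 (edgeR adjusted p = 0.15, and 0.045 to 0.65 over the alternatives, none a call). The share of cells with a read was 98.7% in RAW_Mock and 86.6% in RAW_LPS. In Live-seq, Sirpa was at 39.0, 407, 141 and 262 CPM and then at 274, 119, 88.1 and 248 CPM, lower in 3 batches and higher in batch 6. In that batch 1 cell gave all 61 RAW_Mock counts and 1 cell all 387 RAW_LPS counts. In the fit the log2 fold change was 0.04 ± 1.20 with batch 6 and -0.63 without it.

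Syk, the kinase that binds phosphorylated ITAMs, was at 40.0, 25.2 and 36.1 CPM in the scRNA-seq RAW_Mock sums and at 92.5, 39.5 and 120 CPM in the RAW_LPS sums. It was higher in each batch, with overlap between batches. The fitted log2 fold change was 1.44 ± 0.53 (edgeR adjusted p = 0.24) and 1.34 ± 0.27 with the RAW sums alone (adjusted p = 0.035, a call; 0.035 to 0.59 over the alternatives). The share of cells with a read was 70.7% in RAW_Mock and 80.5% in RAW_LPS, with 29.4% in IBA. In Live-seq, Syk was at 0, 4.12, 21.4 and 18.1 CPM and then at 91.5, 101.5, 2.80 and 31.1 CPM, higher in 3 batches and lower in batch 8_8. In batch 6, 1 cell gave 126 of the 129 RAW_LPS counts, and the log2 fold change over the batches was 2.03 ± 2.69 (edgeR adjusted p = 1.0).

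**Figure D4:**
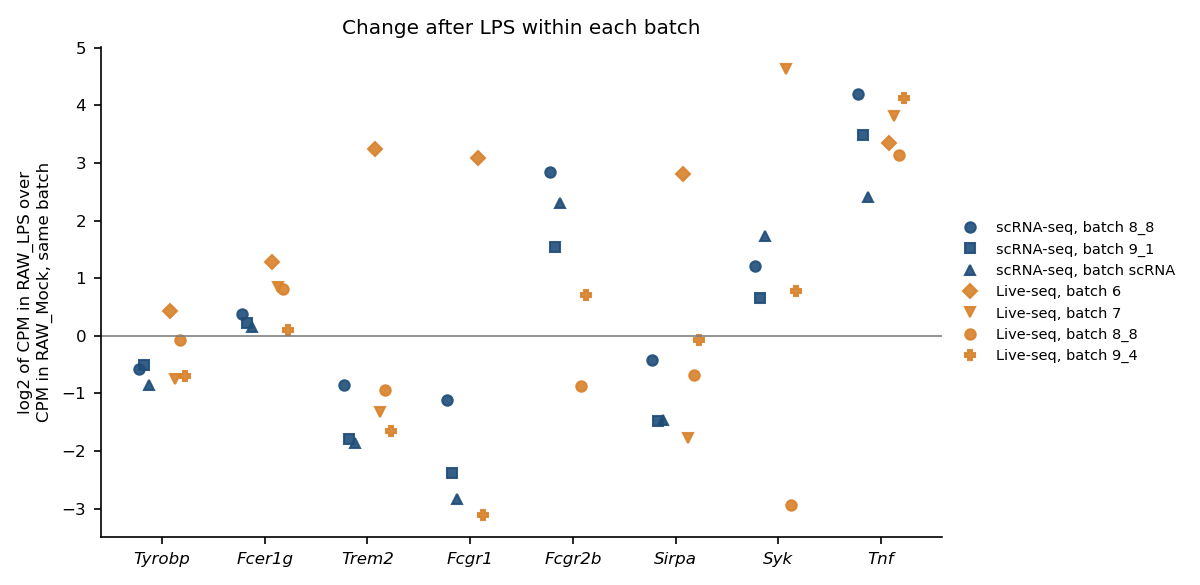
Log2 of the CPM in RAW_LPS over the CPM in RAW_Mock of the same batch, for 7 members and for Tnf, in scRNA-seq (blue) and Live-seq (orange); 1 point per batch, and batches with 0 counts in either state have no point. Fcer1g and Tnf lie above 0 in all 7 batches, and the Live-seq points of Trem2 and Syk spread from -1.65 to 3.24 and from -2.93 to 4.62.

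Neither technique nor its interaction with LPS gave a call among the 6 members tested. For the interaction, 0% of 10074 genes were called by edgeR (419 at an unadjusted p under 0.05; DESeq2 called 18 higher and 140 lower). The interaction estimates for the members ran from -0.71 ± 3.26 (Fcgr2b) to 0.94 ± 1.29 (Sirpa), and those of Fcgr2b and Syk changed sign when 1 batch was left out. Between Live-seq and scRNA-seq, over both RAW states, 0.149% of genes were called, all lower in Live-seq (the edgeR 4 fit called 3 higher and 0 lower), and the members ran from -1.07 ± 0.91 (Syk) to 0.39 ± 0.70 (Sirpa). Only batch 8_8 holds both techniques, so that outside this batch technique and batch cannot be told apart. These are differences that the data could not resolve and not evidence of equal levels.

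Around the members, 97 other genes of ITAM signalling were followed, of which 91 were in the table and 73 were tested in scRNA-seq. After LPS, 1 was called higher and 1 lower, against 127 higher and 43 lower of all 12303 genes, and the median log2 fold change was 0.05 against -0.01 for all genes. Bcl10, part of the complex that links Syk and Card9 to NF-kappa B, was at 95.4, 112.2 and 102.5 CPM in RAW_Mock and at 238, 162 and 212 CPM in RAW_LPS (log2 fold change 1.10 ± 0.21, edgeR adjusted p = 0.042). Csk, the kinase that restrains Src family kinases, was at 309, 121 and 190 CPM and then at 124, 49.3 and 63.5 CPM (-1.26 ± 0.19, adjusted p = 0.019). Bcl10 was higher and Csk lower in each of the 3 batches. Neither was called when batch 9_1, 8_8 or scRNA was left out or without batch as a term.

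By role, none of the 10 Src family kinases and regulators but Csk was called, and 1 of 28 adaptors and effectors after Syk, 0 of 10 phosphatases and other inhibitors, 0 of 10 other receptors that pair with ITAM adaptors, 0 of 6 other ITIM receptors and 0 of 9 ligands and partners. At an unadjusted p under 0.05 there were 12 higher and 9 lower values among the 73, where 15.6% of all genes had such a p. With the RAW sums alone, where 344 of 12303 genes were called higher and 239 lower, 6 were called higher (Bcl10, Clec4e, Inppl1, Lcp2, Malt1 and Pik3r5) and 5 lower (Cd300a, Cd33, Csk, Inpp5d and Nfatc1). Clec4e (Mincle), a C-type lectin that signals through Fcer1g, had a log2 fold change of 3.10 ± 0.73 in scRNA-seq (adjusted p = 0.083) and 3.48 ± 0.67 in Live-seq (adjusted p = 0.71), and it is named here for its place in that list of calls. In Live-seq 0 of 65 were called by edgeR and 4 had an unadjusted p under 0.05; DESeq2 called Clec4e higher and Nfatc1 lower. Bcl10 was higher there in all 4 batches, and Csk was lower in 3 of 4.

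Over the 26 sums of both techniques, the genes whose log2(CPM + 1) was most like that of Tyrobp were Fcer1g (Pearson r = 0.996), Laptm5 (0.993), Ncf4 (0.993), Rac2 (0.992) and Car2 (0.992). For Fcer1g they were Tyrobp (0.996), Rac2 (0.993), Spi1 (0.992), Ncf4 (0.991) and Car2 (0.991). Trem2 ranked 12th for Tyrobp and 23rd for Fcer1g among 10073 genes, with r = 0.986 and 0.979. Fcgr2b followed at 0.780 and 0.799, Sirpa at 0.631 and 0.622, and Syk at 0.550 and 0.583. The points share libraries and depth and fall into macrophage and other sums, and no p is given.

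Outside the macrophage line the members gave little to compare. Sirpa was at 48.8 CPM in the 1 scRNA-seq sum of ASPC_Post and at 53.1 ± 6.0 CPM in ASPC_Pre (SD, n = 2), and Syk at 8.65 and 6.34 ± 0.66 CPM. In post-Live-seq IBA cells, all in batch 8_1, Sirpa was at 23.9, 25.8 and 19.7 CPM at 0 h, 1 h and 4 h. With 1 sum per group there is no test. Tyrobp had 1 count in 162 of these cells and Fcgr2b 3 counts in 1 cell.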

How the data were processed

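The authors sequenced Live-seq, scRNA-seq and post-Live-seq libraries, aligned reads with STAR 2.6.1c to mm10 and counted uniquely aligned reads per gene with HTSeq, without strand; the deposited values are those raw counts, with 1 column per cell, with no molecular identifiers and with low-quality cells already removed. From it, 20 negative-control genes of the study and 90 genes of ribosomal proteins were set aside (a median of 24.1% of counts in Live-seq and 24.7% in scRNA-seq), and the rest summed per technique, state, line and batch of at least 3 cells. CPM use the counts that remained.

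Genes with at least 2 counts in 15% of the cells of 1 scRNA-seq state, that also passed edgeR's filterByExpr over the cells of a technique (minimum proportion 5%), were tested: 12303 in scRNA-seq, 10104 in Live-seq and 10074 in both. The main test was edgeR 4.0.16 (R 4.3.3), quasi-likelihood with TMM factors, batch as a term (except between techniques), a prior count of 0.125 and Benjamini-Hochberg adjustment over all genes; it was tested on simulated data. Standard errors are the log2 fold change over the square root of F. Batch is named in the labels; deviations of sums from 1 batch correlated at 0.26 to 0.44 in scRNA-seq and 0.01 to 0.20 in Live-seq. DESeq2 1.42.0 and other filters, scalings and left-out batches were alternatives; fits without the odd cell or with the RAW sums alone were chosen after seeing the data.

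Members and lists were chosen with earlier results of these data known. Other genes of the pathway list are named where called, and Clec4e and the genes of the alternative lists were named after their values were seen. Single cells are not replicates, and cells of 1 batch are not independent cultures.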

Additional observations from a re-analysis of the deposited data

Results flagged for a closer look

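Trem2 in the Live-seq RAW_Mock sum of batch 6 was at 57.5 CPM, far below the other 3 RAW_Mock sums, a gap of 0.949 of the whole range. It was the only 1 of 15 groups of 4 sums to stand apart in this way, and chance gives about 1 in 20. That sum held 8 cells and 90 Trem2 counts, and its part in the Live-seq LPS comparison is given above with and without the batch.

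The 11 wild-type RAW264.7 cells given LPS, which entered only 1 alternative of the LPS fit in Live-seq, had Tyrobp at 725 CPM, Fcer1g at 1548 CPM, Fcgr1 at 69.3 CPM and Fcgr2b at 199 CPM, each above the 4 RAW_LPS sums of RAW-G9 biopsies. For Fcgr2b, 875 of the 1035 counts came from 1 cell, and for Fcgr1, 182 of 360. The line is in 1 batch of its own, so line and batch cannot be told apart.

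Syk in the post-Live-seq IBA cells lysed at 4 h was at 8.86 CPM, against 2.05 CPM in the controls without a biopsy (0 h) and 1.75 CPM at 1 h, with 52 of its 141 counts in 1 cell and 1 sum per time.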

How the results depend on the processing

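Counts of called members were the same under most alternatives. For LPS in scRNA-seq, where no member was called, DESeq2, no filter on low counts and the edgeR 4 fit each gave 1 (Fcgr2b), and the RAW sums alone gave 3. Against IBA in Live-seq the 3 calls ran from 1 to 3 with a batch left out, and against ASPC_Pre the 2 calls were 4 with DESeq2 and ran from 0 to 3 with a batch left out. Of the pathway list, 2 genes were called after LPS in scRNA-seq, 6 with DESeq2, 6 with the edgeR 4 fit, 11 with the RAW sums alone, 0 without the replicate block and 0 to 1 with a batch left out; in Live-seq DESeq2 gave 2 in place of 0. Over all genes, LPS in scRNA-seq gave 170 calls, 699 with DESeq2, 460 with the edgeR 4 fit, 583 with the RAW sums alone, 35 without the replicate block, 33 without batch 9_1, 4 without batch scRNA and 0 without batch 8_8. The cause was not tested.

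Directions turned where the error was large. With a batch left out, the log2 fold change after LPS in Live-seq ran from -1.05 to 0.15 for Trem2 and from -0.63 to 0.49 for Sirpa, and Sirpa was at -0.017 with no filter, -0.072 with the edgeR 4 fit and -0.17 without the replicate block. Syk against IBA in Live-seq ran from -0.13 to 2.93. The interaction ran from -2.29 to 2.06 for Fcgr2b, -1.07 to 2.92 for Syk and -0.34 to 0.76 for Tnf. Between techniques, Tyrobp ran from -0.65 to 0.024, Fcer1g from -0.66 to 0.052, Trem2 from -0.17 to 0.39 and Tnf from -0.23 to 0.30; Tnf was at -0.11 with no filter, and within batch 8_8 Tyrobp was at 0.0076, Trem2 at -0.28 and Sirpa at -0.41.

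Depth limited the low genes. Thinned to 50000 counts per cell, the share of scRNA-seq cells with a read was 90.6% for Trem2 in RAW_LPS, 29.5% for Fcgr1 in RAW_Mock, 30.8% and 71.1% for Fcgr2b in RAW_Mock and RAW_LPS, 73.8% for Sirpa in RAW_LPS, 46.8% and 67.8% for Syk, and 0% for Fcgr3 in RAW_LPS; with at least 2 counts required, Fcgr3 and Fcgr4 were at 0% in RAW_LPS. Per base of the longest coding transcript, RAW_Mock levels were 436 RPKM for Trem2, 6.97 for Fcgr2b, 55.5 for Sirpa and 6.29 for Syk, the last 3 also by the longest transcript. RLE factors in edgeR, in place of TMM, moved the median log2 value of all genes. In Live-seq it moved by -0.20 against IBA and -0.15 against ASPC_Pre, and for the interaction by 0.11.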
